A study of Mus musculus with 18 samples.

Results

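Colony-stimulating factors are secreted proteins that keep macrophages, dendritic cells and granulocytes alive and make them divide. Their genes and receptor genes were followed in mouse skin through 8 members chosen by symbol: the ligand genes Csf1, Il34, Csf2 and Csf3, and the receptor genes Csf1r, Csf2ra, Csf2rb and Csf3r. All 8 had a row in each of the 10 mRNA count matrices, so they were 8 of 32285 genes. Every mouse of both arms had surgery, in which a channel was opened under the back skin from an incision near the tail to the neck. Mice of the expanded arm received a hydrogel expander under the skin near the neck, which stretches the skin as it swells, and mice of the control arm received none, so both arms carry the surgical wound. Skin was taken on day 1, 2 or 4, digested, and sorted for living cells that excluded the dye DAPI. Each arm had 5 libraries: day 1 in sequencing rounds 1 and 2, day 2 in rounds 1 and 2, and day 4 in round 1. The mice of an arm and round were pooled in 1 tube, so the library is the replicate throughout. Strain, age and sex of the mice are not given in the sources used here.

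CSF1 and IL-34 are distinct proteins that both bind CSF1R, a receptor tyrosine kinase that monocytes, macrophages and Langerhans cells depend on. In skin, IL-34 is known as a product of keratinocytes that maintains Langerhans cells, the dendritic-like cells of the epidermis. CSF2, also called GM-CSF, binds an alpha chain, Csf2ra, paired with a beta chain, Csf2rb, which in mice also serves the receptors for IL-3 and IL-5. CSF3, also called G-CSF, acts through CSF3R and is known for the production and release of neutrophils. Endothelial cells, fibroblasts and macrophages are known to make CSF3 after stimulation with IL-1, TNF or IL-17.

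Promoter windows are shown for 2 members that the results turn on: Csf1, the ligand gene that was lower in 4 of the 11 units tested, and Csf2ra, a receptor gene found mainly in myeloid cells. Each run holds the 250 bases before the RefSeq start site, 5′ to 3′ on the gene's strand, from the GRCm38.p6 table. Capitals mark matches to GGGNNNNNCC, an NF-kappaB-like motif, in Csf1, and to GAGGAA, a PU.1-like motif, in Csf2ra, on either strand. The Csf1 window lies at chr3:107760470-107760719, minus strand, and the Csf2ra window at chr19:61228419-61228668, minus strand.
Csf1: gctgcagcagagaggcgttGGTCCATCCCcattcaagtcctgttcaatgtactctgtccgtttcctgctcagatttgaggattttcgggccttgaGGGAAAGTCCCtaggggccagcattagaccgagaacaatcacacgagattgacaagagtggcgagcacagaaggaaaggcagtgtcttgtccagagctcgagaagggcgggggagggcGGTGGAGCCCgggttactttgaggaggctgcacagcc
Csf2ra: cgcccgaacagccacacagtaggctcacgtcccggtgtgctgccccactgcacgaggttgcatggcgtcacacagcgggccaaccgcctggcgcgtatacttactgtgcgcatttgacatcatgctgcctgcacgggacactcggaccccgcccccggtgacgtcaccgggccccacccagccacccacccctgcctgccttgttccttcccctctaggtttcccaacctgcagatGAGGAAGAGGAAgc
The longest capital run of Csf1 holds 1 match on each strand that overlap, which makes 4 matches in its window. The Csf2ra window holds GAGGAA as a pair of adjoining copies that end 3 bases before the start site. Matches to GGGNNNNNCC that were left in lower case also lie in the window of Csf2ra, and the window of Csf3r, not printed here, holds matches to both motifs. Of 32851 promoters of the same length, 45.8% held a match to GGGNNNNNCC and 23.3% a match to GAGGAA on either strand. TGANTCA, an AP-1-like motif, was found in 6.75% of them and in none of the windows of Csf1, Csf2, Csf2ra and Csf3r. These are letter matches, and binding was not measured.

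In the annotation of the GRCm38 build, Csf1 lies at chr3:107741048-107760469, Il34 at chr8:110741829-110805924, Csf2 at chr11:54247271-54249667, Csf2ra at chr19:61223957-61228429, Csf2rb at chr15:78325752-78353847, Csf3 at chr11:98701263-98703629 and Csf3r at chr4:126024550-126044440. Csf2 and Il3, the gene of another growth factor of myeloid cells, are separated by 15635 bases on chromosome 11. Csf2rb and Csf2rb2, a near-identical mouse gene whose product serves the IL-3 receptor, are separated by 20030 bases on chromosome 15, and reads could be split between them, so the values of both are uncertain.

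The libraries held 17726739 to 75470722 unique molecular identifiers (UMIs, counts of distinct captured mRNA molecules). After limits and doublet removal 45495 cells were analysed, 28453 of control and 17042 of expanded skin, with median UMIs per cell of 6440.5 to 12848 by library. Clustering without the 8 genes gave 39 clusters, of which 28 were named into 15 classes from marker genes. The names stand for fibroblast-like, macrophage-like and so on. Unnamed clusters, which held 19.1% of control and 13% of expanded cells, are called by their leading genes. At most 17 cell barcodes were shared by a pair of libraries (0.333% of the smaller). Levels are given as CPM, the UMIs of a gene per 1000000 UMIs of the class and library, in libraries with at least 20 cells of the class. They are listed in the order day 1 round 1, day 1 round 2, day 2 round 1, day 2 round 2 and day 4 round 1.

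The arms were compared in 15 units, 10 classes and 5 unnamed clusters, with edgeR's quasi-likelihood test on summed UMIs and day as a covariate. A gene is called when its p, adjusted over all genes of that unit, is under 0.05, and log2 fold changes are expanded over control. Csf1 was lower in 4 units, the fibroblasts, the Cxcl5/Tnc cluster, endothelial cells and pericytes, and Csf1r was lower in macrophages and fibroblasts but higher in a Ccl22/Cd207 cluster of antigen-presenting cells. Il34 was lower in the Cxcl5/Tnc cluster, and Csf2ra and Csf2rb were lower in a Lyz1/Mgl2 cluster of myeloid cells. Csf3 was higher in fibroblasts and in the Cxcl5/Tnc cluster. These were 12 calls among 49 tests of a member in a unit, 9 lower and 3 higher. Over all genes, 11.6% of the tests in these 15 units were called. The p-values measure the spread between these pooled libraries. No member was called in basal keratinocytes, lymphatic endothelial cells, dermal papilla cells, Schwann cells, T cells, or the Gzmc/Xcl1 or Foxp3/Ctla4 clusters, and none was expressed highly enough to be tested in melanocytes. Of all genes, 13.8% were called in basal keratinocytes, 10% in lymphatic endothelial cells, 3.55% in dermal papilla cells, 1.2% in melanocytes, 0.342% in Schwann cells, 0.183% in T cells, 0.554% in the Gzmc/Xcl1 cluster and 0% in the Foxp3/Ctla4 cluster.

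The members fell into different cells. Csf1 UMIs of the control arm were 80.6% from fibroblasts, 9.08% from the Cthrc1/Gpx3 cluster and 4.87% from the Cxcl5/Tnc cluster, both of which carried fibroblast markers. In the expanded arm fibroblasts gave 50.5%, the Cxcl5/Tnc cluster 17.9% and neutrophils 9.51%. These shares pool the libraries, and the means over the 5 expanded libraries were 45.1% ± 12.5 (SD, n = 5), 14.7% ± 7.09 (SD, n = 5) and 14.9% ± 11.8 (SD, n = 5), the last with a range of 0.362% to 24.5%. Csf3 UMIs were 82.8% endothelial in control and 43.7% in expanded skin, where neutrophils held 22.8%. By library the endothelial share ranged from 63.8% to 91.8% in control and from 15.4% to 71.9% in expanded skin. Csf3r UMIs lay to 59.6% in macrophages and to 18.6% in neutrophils of control skin, and to 75.2% in neutrophils of expanded skin. Csf2 UMIs came mainly from the Gzmc/Xcl1 cluster (47.4% control, 20.5% expanded) and from T cells (33.5% and 35.3%). Mast cells gave 6.44% and 12.2%, and macrophages 8.66% and 2.36%. These Csf2 shares varied widely by library, from 1.46% to 53.4% for expanded mast cells and from 0% to 31.6% for control macrophages. Of the expanded UMIs, 8.73% were from lymphatic endothelial cells and 8.55% from the Mcpt8 cluster. The lymphatic UMIs of the expanded arm were 48 in 3 cells, all of day 4. Such shares move with the number of cells of each class as well as with the level per cell.

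**Figure D1:**
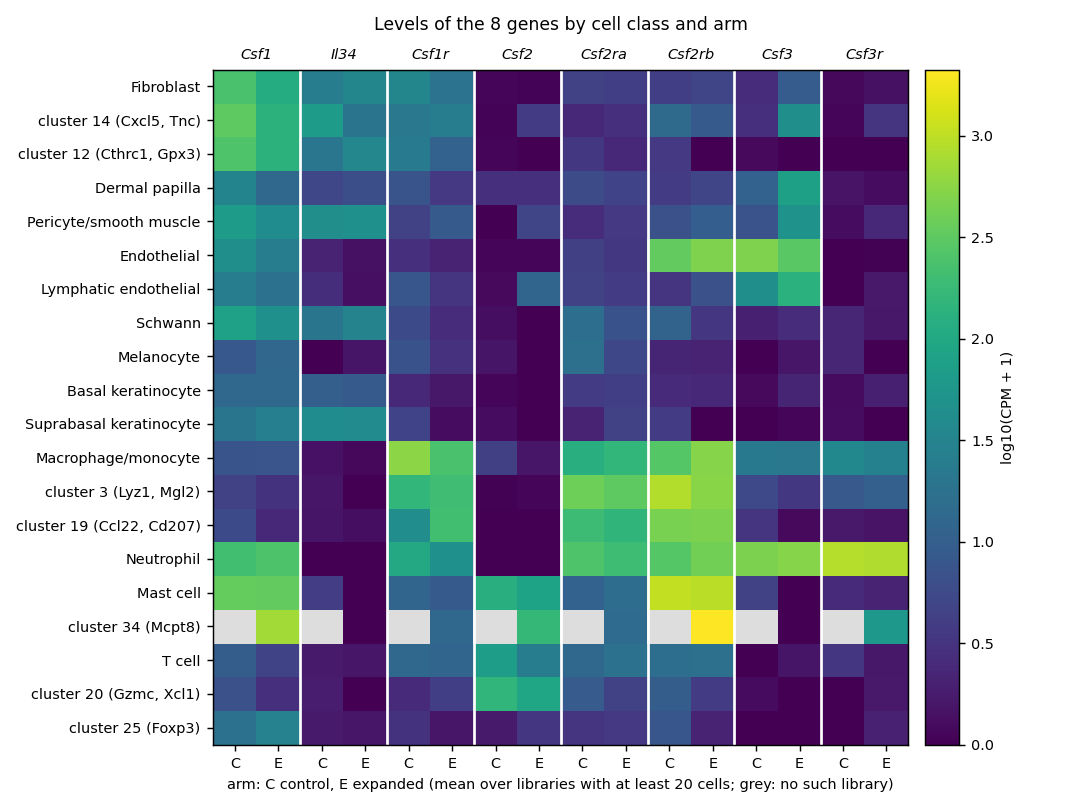
Mean level of each of the 8 genes (columns, control and expanded side by side) in 20 classes and clusters (rows), as log10(CPM + 1); grey marks units with no library of at least 20 cells. Csf1 is bright in fibroblast, mast cell and neutrophil rows, Csf3 in endothelial and neutrophil rows, Csf1r and Csf2ra in myeloid rows, Csf2rb in myeloid, mast cell and endothelial rows, and Csf3r in the neutrophil row.

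**Figure D2:**
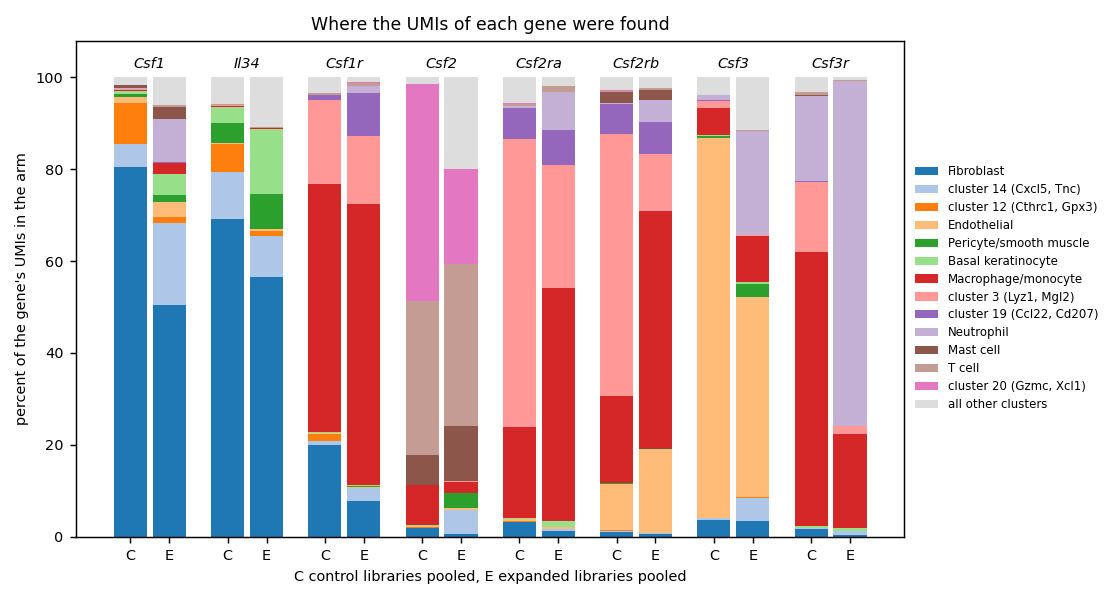
Percent of each gene's UMIs found in each class or cluster, with the 5 control libraries pooled in bar C and the 5 expanded libraries pooled in bar E. Fibroblasts hold the largest part of Csf1 in both pooled bars, and Csf3r moves from 18.6% to 75.2% neutrophil.

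Csf1, the ligand gene of the macrophage receptor, had control levels of 345 ± 42.8 CPM (SD, n = 5) in mast cells, 312 ± 73.9 CPM (SD, n = 4) in the Cxcl5/Tnc cluster and 237 ± 57.8 CPM (SD, n = 5) in fibroblasts. In fibroblasts it stood at 319, 258, 226, 160.4 and 222 CPM in the control libraries and 172, 130.2, 95.7, 91.6 and 74.6 CPM in the expanded libraries. Each expanded library was below the control library of its day and round, and the groups overlapped only where expanded day 1 round 1 passed control day 2 round 2. The expanded mean was 113 ± 38.6 CPM (SD, n = 5) (log2 fold change -1.35, SE 0.16, adjusted p = 0.000435, lower in 5 of 5 pairs), in a class where 27.3% of all genes were called. A UMI of Csf1 was found in 58.8% ± 11.4 (SD, n = 5) of the control fibroblasts and in 40.9% ± 13.7 (SD, n = 5) of the expanded ones. The shares were 28.8% ± 5.50 (SD, n = 5) and 15% ± 6.55 (SD, n = 5) after thinning cells to 2000 UMIs. Basal keratinocytes, at a median of 10994 UMIs against 10084, gave 8.50% ± 3.94 (SD, n = 5) in control skin.

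The fibroblast class was made up differently in both arms, and its clusters differed in Csf1. Cluster 0, led by Mirg, Col1a2 and Cpz, held 36.4% of control and 3.86% of expanded fibroblasts and had Csf1 at 326 ± 66.4 CPM (SD, n = 5) in control skin. Cluster 4, led by Coch, Prok2 and Tnn, held 10.7% and 38.8% and had 81.1 ± 35.9 CPM (SD, n = 5). Cluster 0 had too few expanded libraries for a test. Fitted 1 cluster at a time, Csf1 was called in none of the 5 clusters with enough libraries. Its log2 fold change was -0.39 in cluster 2, -0.59 in cluster 4, -0.25 in cluster 6, -0.56 in cluster 13 and 0.18 in cluster 29 (adjusted p = 0.165 to 0.773). Of all genes, 8.78%, 8.9%, 19.1%, 1.15% and 4.36% were called in these clusters. With the fibroblast clusters and the unnamed clusters that best matched fibroblast markers joined, Csf1 gave log2 fold change -1.31, SE 0.16, adjusted p = 0.000418, where 29.5% of genes were called. That fit also called Csf3 as higher (log2 fold change 3.76, SE 0.74, adjusted p = 0.00393) and Csf3r as higher (log2 fold change 2.13, SE 0.67, adjusted p = 0.0344), a gene that averaged under 1 CPM in fibroblasts of both arms. The single-cluster and joined fits were chosen after the data were seen.

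In the Cxcl5/Tnc cluster, 1116 cells led by Cxcl5, Tnc, Saa3, Timp1 and Il11 that also carried 8 of 8 fibroblast markers, control day 2 round 1 had too few cells. Csf1 was 360.1, 365, 206 and 317 CPM in the control libraries and 279, 178, 93.1, 43.7 and 89 CPM in the expanded libraries there. It was lower in 4 of 4 pairs (log2 fold change -1.30, SE 0.25, adjusted p = 0.00436; 18.2% of genes called). The expanded values ranged from 43.7 on day 2 to 279 CPM on day 1. Endothelial cells had less Csf1, at 38.8, 45.1, 19.8, 63.4 and 51.3 CPM in the control libraries and 23.8, 29, 15.1, 21.3 and 35.6 CPM in the expanded libraries. All 5 pairs were lower in the expanded library (log2 fold change -0.93, SE 0.22, adjusted p = 0.0193; 11.3% of genes called). That call was lost without control day 1 round 2 (adjusted p = 0.0513) and with mice as replicates (adjusted p = 0.216), and was not made in the larger endothelial cluster alone (log2 fold change -0.71, SE 0.31, adjusted p = 0.159; 10.1% called). In pericytes and smooth muscle cells Csf1 was 101, 89.7, 45.9, 44.5 and 56.3 CPM in the control libraries and 74.3, 35, 45.7, 18.1 and 28.4 CPM in the expanded libraries. It was again lower in 5 of 5 pairs (log2 fold change -0.83, SE 0.26, adjusted p = 0.0476; 15.7% called). This call was lost without control day 1 round 1, day 1 round 2, day 2 round 1, day 2 round 2 or day 4 round 1 or expanded day 1 round 2, day 2 round 2 or day 4 round 1 (adjusted p = 0.057 to 0.171) and with RLE size factors (adjusted p = 0.0537), DESeq2 (adjusted p = 0.0668) and cells thinned to 2000 UMIs (adjusted p = 0.058). The fibroblast marker list summed in pericytes to 654 to 25019 CPM in control and 1011 to 15224 CPM in expanded libraries (8 of 8 markers above 1 CPM, 3 higher in expanded cells). In endothelial cells it summed to 1029.7 to 2509 CPM in control and 24.2 to 2389.8 CPM in expanded libraries (8 of 8 markers above 1 CPM, 0 higher in expanded cells). Its part in the Csf1 values was not tested.

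Schwann cells gave a change of like size that was not called (log2 fold change -1.02, SE 0.26, adjusted p = 0.16, lower in 4 of 4 pairs). Of 11 units tested, 10 had an estimate below 0, with a median of -0.86. In macrophages the level was low in both arms, at 6.22 ± 2.92 CPM (SD, n = 5) and 6.42 ± 2.88 CPM (SD, n = 5), with a log2 fold change of -0.02 (SE 0.39). Mast cells had 345 ± 42.8 CPM (SD, n = 5) in control and 338 ± 68.7 CPM (SD, n = 3) in expanded skin, a difference smaller than the spread, and too few libraries for a test. The change in fibroblasts was not shown to differ from that in macrophages (difference of log2 changes -1.15, exact permutation p = 0.0714, adjusted p = 0.0714 over 6 comparisons).

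**Figure D3:**
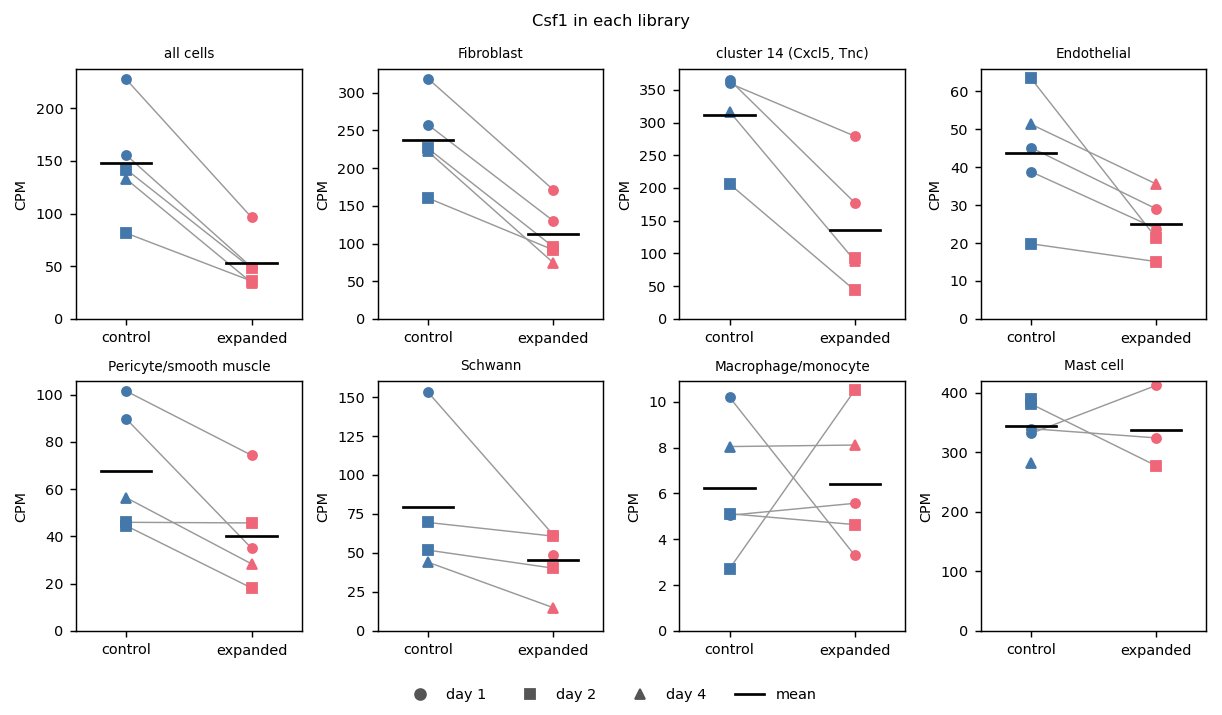
Csf1 in CPM (linear axes from 0) in each library, with grey lines joining the control and expanded library of a day and round and black bars at the means. Every line falls in fibroblasts, the Cxcl5/Tnc cluster and endothelial cells, and lines cross in macrophages and mast cells.

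Summed over all cells of a library, Csf1 was 227, 155, 142, 81.4 and 133 CPM in the control libraries and 96.5, 49.1, 48, 35.9 and 34.5 CPM in the expanded libraries. Each expanded library was below its control by a wide margin (log2 fold change -1.71, SE 0.27, adjusted p = 0.00354; 25.2% of genes called), and only expanded day 1 round 1 reached the range of the controls. Fibroblasts made up 26.5% to 52.7% of control and 11.6% to 32.3% of expanded cells. In these sums fewer cells of a class and less RNA per cell cannot be told apart.

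Il34, the other ligand gene of CSF1R, was found in stroma and in keratinocytes. Its control level was 67.2 ± 19.1 CPM (SD, n = 4) in the Cxcl5/Tnc cluster, 43.5 ± 7.24 CPM (SD, n = 5) in pericytes, 40.2 ± 19.7 CPM (SD, n = 3) in suprabasal keratinocytes, 24.9 ± 5.60 CPM (SD, n = 5) in fibroblasts and 9.19 ± 2.65 CPM (SD, n = 5) in basal keratinocytes. Pericytes and suprabasal keratinocytes did not differ beyond their spread. A UMI was found in 33.1% ± 14.5 (SD, n = 3) of suprabasal and 7.32% ± 2.27 (SD, n = 5) of basal keratinocytes of control skin.

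In the Cxcl5/Tnc cluster Il34 was 88.8, 45.1, 75.8 and 59.3 CPM in the control libraries and 19.1, 21, 13.9, 16.6 and 18.7 CPM in the expanded libraries. The groups did not overlap, and the gene was lower in 4 of 4 pairs (log2 fold change -2.03, SE 0.22, adjusted p = 0.000173), the largest fall of a ligand gene among the called results. No other unit called it. The log2 fold change was 0.15 in fibroblasts (SE 0.16), -0.07 in pericytes (SE 0.22) and -0.23 in basal keratinocytes (SE 0.26). Within the class, the fibroblast clusters gave estimates below 0 while the class as a whole did not: -0.54 in cluster 2, -0.67 in cluster 4 (adjusted p = 0.0532), -0.48 in cluster 6, -0.15 in cluster 13 and -1.19 in cluster 29, none called. Clusters 4, 13 and 29 had the highest control levels (66.7, 54.6 and 74.5 CPM) and together were a larger part of expanded than of control fibroblasts. Over all cells Il34 was 19.7, 17.8, 11.5, 19.4 and 16.3 CPM in the control libraries and 19.5, 11.4, 7.52, 10.8 and 11.2 CPM in the expanded libraries. It was lower in 5 of 5 pairs (log2 fold change -0.71, SE 0.19, adjusted p = 0.0223). The call was lost without control day 1 round 1 or day 4 round 1 or expanded day 1 round 2 or day 4 round 1 (adjusted p = 0.0529 to 0.0779).

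Csf1r, the receptor gene of both ligands, marked macrophages, where it stood at 676, 562, 668, 359 and 489 CPM in the control libraries and 344, 172, 185, 207 and 249 CPM in the expanded libraries. No expanded library reached the lowest control library. The means were 551 ± 133 CPM (SD, n = 5) and 231 ± 69.4 CPM (SD, n = 5) (log2 fold change -1.39, SE 0.23, adjusted p = 0.00364, lower in 5 of 5 pairs; 22.2% of genes called). Macrophage cluster 8, led by Cd209f, C1qc and Folr2, held 55.3% of control and 4.78% of expanded macrophages, and cluster 1, led by Chil3, Msr1 and Ly6c2, held 44.7% and 95.2%. Within cluster 1 alone Csf1r was 446, 398, 533, 334 and 380.4 CPM in the control libraries and 327, 159.9, 185, 206 and 249.5 CPM in the expanded libraries, again with no overlap (log2 fold change -0.999, SE 0.20, adjusted p = 0.00915; 10.7% called). In cluster 8 the control libraries had 723, 637, 714, 501 and 617 CPM and the 2 expanded libraries with enough cells, both of day 1, had 372 and 305 CPM, with no test. The macrophage marker list summed to 13984 to 19857 CPM in control and 7861 to 16094 CPM in expanded libraries (10 of 10 markers above 1 CPM, 5 higher in expanded cells), and its part in the fall of Csf1r was not tested.

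The Lyz1/Mgl2 cluster, 2484 myeloid cells led by Lyz1, Mgl2, Mmp12, Ccl17 and Cd209a, had Csf1r at 155, 149, 122, 201 and 172 CPM in the control libraries and 267, 204, 183, 162 and 197 CPM in the expanded libraries. It was not called there (log2 fold change 0.12, SE 0.15, with 16.5% of genes called), and the change differed from that in macrophages (difference of log2 changes 1.60, exact permutation p = 0.00794, adjusted p = 0.0159 over 6 comparisons). In the Ccl22/Cd207 cluster, 753 cells led by Ccl22, Cd207 and Ccr7, Csf1r went the other way. It was 44.5, 69.5, 0, 70.8 and 22.4 CPM in the control libraries and 187, 238, 243, 243 and 124 CPM in the expanded libraries. Here every expanded library was above every control library (log2 fold change 2.04, SE 0.42, adjusted p = 0.0269; 4.43% of genes called). The call was lost without control day 1 round 1, day 1 round 2 or day 4 round 1 or expanded day 1 round 2, day 2 round 1, day 2 round 2 or day 4 round 1 (adjusted p = 0.0511 to 0.0914), with log2 fold changes from 1.77 to 2.37 over all such fits. The change differed from that in macrophages (difference of log2 changes 4.37, exact permutation p = 0.00794, adjusted p = 0.0159 over 6 comparisons). These 6 comparisons between units were chosen after the values were seen, and the smallest p that 252 arrangements of the arm labels can give is 0.00794. With the labels exchanged only within the 5 pairs of a day and round, the 32 arrangements can give no exact p under 0.0625, which all 5 comparisons described as differing had (same direction in 5 of 5 pairs), so none passes 0.05 in that form. Each compares mean log2 ratios of the levels in both units, with 0.5 UMI added, and the difference for the Ccl22/Cd207 cluster is 3.26 without control day 2 round 1, where the cluster had no Csf1r UMI.

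Finer clustering split the Ccl22/Cd207 cluster into a part led by Cd207, Xcr1 and Irf8 and a part led by Ccl22, Ccr7 and Il12b. The Xcr1 part had 275 control and 113 expanded cells and the Ccr7 part 134 and 230, so the make-up of the cluster differed between the arms. With libraries pooled, the Xcr1 part had Csf1r at 9.61 CPM in control and 51.5 CPM in expanded cells, and the Ccr7 part 135 and 297 CPM. In the Ccr7 part the libraries had 122, 207, 0, 151 and 76.7 CPM in control and 699, 348, 317, 328 and 122 CPM in expanded skin, from 4 to 67 cells each, higher in 5 of 5 pairs. In the Xcr1 part they had 7.32, 20, 0, 12 and 3.48 CPM in control and 0, 40.1, 97.9, 68.3 and 134 CPM in expanded skin, higher in 4 of 5 pairs and lower in day 1 round 1. These values came from 9 to 90 cells each. Expanded day 2 round 2 held 13 Csf1r UMIs in 10 cells and expanded day 4 held 14 in 9 cells, fewer than the 20 cells asked of a level elsewhere. C1qa, a macrophage gene, was at 124 CPM in control and 341 CPM in expanded cells of the Ccr7 part. In the Xcr1 part C1qa went the other way, at 23.5 CPM in control and 0.606 CPM in expanded cells. Cd207 was at 1539 CPM in control and 647 CPM in expanded cells of the Ccr7 part, and at 1846 and 1215 CPM in the Xcr1 part. The dendritic marker list summed in the whole cluster to 730.5 to 2213 CPM in control and 1025 to 5159.9 CPM in expanded libraries (9 of 9 markers above 1 CPM, 5 higher in expanded cells). The Langerhans list summed to 24883 to 34156 CPM in control and 15039 to 28220.0 CPM in expanded libraries (6 of 6 markers above 1 CPM, 4 higher in expanded cells). Most of that sum was Cd74, at 27923 CPM in control and 21505 CPM in expanded cells. Cd207 was also lower, at 1753 CPM in control and 849 CPM in expanded cells. Mfge8 was higher, at 409.6 CPM in control and 1463 CPM in expanded cells. The macrophage list summed to 1039.6 to 2109.7 CPM in control and 429 to 1200.0 CPM in expanded libraries (10 of 10 markers above 1 CPM, 5 higher in expanded cells). Of that list, Lyz2 was at 1166 CPM in control and 260 CPM in expanded cells, and C1qa at 53.9 and 219 CPM. The part of these 3 lists in the rise of Csf1r was not tested.

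**Figure D4:**
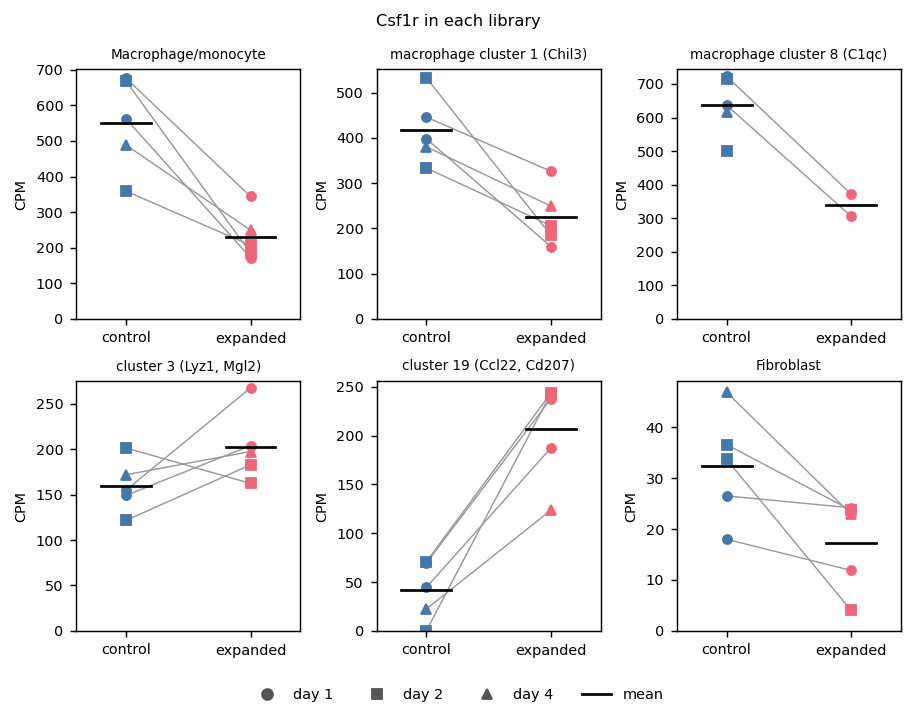
Csf1r in CPM (linear axes from 0) in each library with at least 20 cells, with grey lines joining the control and expanded library of a day and round and black bars at the means. The lines fall in macrophages and in both macrophage clusters and rise in the Ccl22/Cd207 cluster.

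Fibroblasts also held Csf1r UMIs. The gene was 26.5, 18, 36.6, 33.7 and 46.9 CPM in the control libraries and 24.2, 11.9, 23.7, 4.01 and 22.9 CPM in the expanded libraries, lower in 5 of 5 pairs (log2 fold change -1.03, SE 0.34, adjusted p = 0.044), with overlapping groups. A UMI was found in 22.1% ± 7.12 (SD, n = 5) of control fibroblasts against 1.28% ± 1.06 (SD, n = 5) of basal keratinocytes, and in 5.16% ± 1.95 (SD, n = 5) against 0.390% ± 0.359 (SD, n = 5) after thinning. In cluster 0 it was found in 37.7% of cells at 46.1 CPM over both arms, in cluster 4 in 2.21% at 2.91 CPM and in cluster 13 in 1.42% at 1.77 CPM. For each Csf1r UMI, cluster 0 held 0.0730 UMIs of the macrophage gene C1qa, cluster 2 0.0904 and cluster 6 0.0682. Macrophages held 2.72 and the Lyz1/Mgl2 cluster 0.310. Clusters with less Csf1r had higher ratios: 0.667 in cluster 4, 1.86 in cluster 13, 1.16 in cluster 21 and 0.95 in cluster 29. C1qa was found in 3.91% of the cluster 0 cells with Csf1r and in 4.37% of those without. In cluster 21 it was found in 17.0% and 2.51%, and in cluster 29 in 10% and 2.62%. The part of macrophage RNA in the Csf1r values was not tested. The macrophage list summed in fibroblasts to 24.9 to 64.4 CPM in control and 33.2 to 112 CPM in expanded libraries (9 of 10 markers above 1 CPM, 6 higher in expanded cells). No single cluster called it: the log2 fold change was 0.17 in cluster 2, 0.19 in cluster 6 and -0.55 in cluster 4. Nor did the fit of the joined fibroblast clusters (log2 fold change -0.84, SE 0.32, adjusted p = 0.0726). The class call was lost without control day 1 round 1, day 2 round 1, day 2 round 2 or day 4 round 1 or expanded day 1 round 2 or day 4 round 1 (adjusted p = 0.0647 to 0.116) and with DESeq2 (adjusted p = 0.0677).

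Csf2, the GM-CSF gene, was rare and reached its highest levels in lymphoid cells, mast cells and the Mcpt8 cluster, whose leading genes are those of basophils. In the Mcpt8 cluster its highest level, in expanded day 2 round 2, came from 33 UMIs in 2 of 22 cells. In control skin Csf2 was 153 ± 90.4 CPM (SD, n = 5) in the Gzmc/Xcl1 cluster, 121 ± 106 CPM (SD, n = 5) in mast cells and 68.9 ± 28.5 CPM (SD, n = 5) in T cells, which did not differ beyond their spread. Among T cells, cluster 18, led by Il17f and Il17a, had 124 ± 56.5 CPM (SD, n = 5), cluster 28, led by Cd28 and Cd8a, 78.1 ± 19.5 CPM (SD, n = 3), and cluster 17, led by Trdc, 7.23 ± 5.37 CPM (SD, n = 5). In T cells Csf2 was 62.1, 46.7, 116, 74 and 46.3 CPM in the control libraries and 10.5, 21.4, 19.8, 29.3 and 41 CPM in the expanded libraries. The groups did not overlap and all 5 pairs were lower in the expanded library, but the gene was not called (log2 fold change -1.53, SE 0.30, adjusted p = 0.0639). It was called without control day 4 round 1 or expanded day 4 round 1 (adjusted p = 0.019 to 0.0194). A UMI was found in 8.68% ± 1.86 (SD, n = 5) of control T cells, against 0.0974% ± 0.0697 (SD, n = 5) of control fibroblasts at a median of 4290.0 UMIs in T cells and 10084 in fibroblasts.

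In T cell cluster 18 the gene was 144, 65.9, 196, 147 and 66.4 CPM in the control libraries and 19.8, 43.2, 45, 85.1 and 89 CPM in the expanded libraries (adjusted p = 0.182; 0.43% of genes called). In the Gzmc/Xcl1 cluster it was 83.1, 102, 95.8, 297 and 187 CPM in the control libraries and 13.9, 33.2, 10.6, 121 and 262 CPM in the expanded libraries. It was lower in 4 of 5 pairs and higher on day 4 (log2 fold change -1.39, SE 0.47, adjusted p = 0.261). Few cells carried these values. In that cluster control day 2 round 2 held 220 UMIs in 25 of 117 cells, with 92 in 1 cell, and expanded day 4 held 62 UMIs in 6 of 36 cells. In macrophages Csf2 was 7.97, 1.94, 0, 0.590 and 5.72 CPM in the control libraries and 1.10, 0, 0.269, 1.55 and 0 CPM in the expanded libraries (log2 fold change -2.42, SE 1.04, adjusted p = 0.117), and control day 1 round 1 held 43 UMIs in 3 of 639 cells. The level of 55.2 CPM in lymphatic endothelial cells of expanded day 4 rested on 48 UMIs in 3 of 93 cells, 41 of them in 1 cell.

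Csf2ra, the alpha chain of the GM-CSF receptor, was highest in the Lyz1/Mgl2 cluster, at 383, 405, 394, 376 and 368 CPM in the control libraries and 368, 355, 213, 284 and 342 CPM in the expanded libraries. The control libraries lay within 368 to 405 CPM, and the gene was lower in 5 of 5 pairs (log2 fold change -0.54, SE 0.15, adjusted p = 0.0283). The call was lost without control day 1 round 2 or day 4 round 1 or expanded day 2 round 1, day 2 round 2 or day 4 round 1 (adjusted p = 0.0523 to 0.0683) and with cells thinned to 2000 UMIs (adjusted p = 0.12). A small Mki67/Top2a cluster followed with 336 ± 36.9 CPM (SD, n = 2) in control skin, neutrophils with 195 ± 27 CPM (SD, n = 4) in expanded skin, the Ccl22/Cd207 cluster with 189 ± 15.9 CPM (SD, n = 5) and macrophages with 123 ± 24.6 CPM (SD, n = 5) in control skin. In the Ccl22/Cd207 cluster the estimate was below 0 without a call (log2 fold change -0.61, SE 0.19, adjusted p = 0.0786). In macrophages all 5 expanded libraries were above their controls, also without a call (log2 fold change 0.26, SE 0.17, adjusted p = 0.301). Within cluster 1 the estimate was -0.16.

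Csf2rb, the beta chain, was highest in the Mcpt8 cluster (2113 ± 397 CPM (SD, n = 4) in expanded skin) and in mast cells (1039 ± 367 CPM (SD, n = 5) in control), cells in which it is known to serve IL-3. In the Lyz1/Mgl2 cluster it was 1021, 1243, 881, 604 and 664 CPM in the control libraries and 377, 723, 666, 607 and 344 CPM in the expanded libraries, lower in 4 of 5 pairs (log2 fold change -0.93, SE 0.23, adjusted p = 0.0213). Its paralog Csf2rb2 gave a like change there (log2 fold change -0.99, SE 0.29, adjusted p = 0.0388). The Csf2rb call was lost without control day 1 round 2 or day 4 round 1 or expanded day 4 round 1 (adjusted p = 0.0573 to 0.0674). In this cluster the macrophage list summed to 6699 to 11880.3 CPM in control and 3908 to 7335 CPM in expanded libraries (10 of 10 markers above 1 CPM, 6 higher in expanded cells), with Lyz2 at 7229 CPM in control and 2896 CPM in expanded cells. The dendritic list summed to 1045 to 1372 CPM in control and 607 to 1159.7 CPM in expanded libraries (9 of 9 markers above 1 CPM, 3 higher in expanded cells), with Cd209a at 724 CPM in control and 401 CPM in expanded cells. Their part in the falls of Csf2ra and Csf2rb was not tested. In macrophages Csf2rb was 196, 235, 213, 464 and 288 CPM in the control libraries and 205, 825, 623, 494 and 465 CPM in the expanded libraries, higher in 5 of 5 pairs without a call (log2 fold change 0.85, SE 0.35, adjusted p = 0.103). Within cluster 1 the estimate was -0.02. Cluster 8 held 95.5 CPM and cluster 1 536 CPM in control skin. With arm labels exchanged freely, the change in the Lyz1/Mgl2 cluster differed from that in macrophages (difference of log2 changes -1.55, exact permutation p = 0.0159, adjusted p = 0.019 over 6 comparisons). With labels exchanged only within pairs the exact permutation p was 0.0625.

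In endothelial cells Csf2rb was 372, 288, 315, 363 and 336 CPM in the control libraries and 534, 569, 429, 502 and 370.3 CPM in the expanded libraries. The alpha chain gene Csf2ra averaged 3.24 ± 2.16 CPM (SD, n = 5) in control endothelial cells, against 2.80 ± 0.953 CPM (SD, n = 5) in basal keratinocytes. A Csf2rb UMI was found in 62% ± 9.63 (SD, n = 5) of the control endothelial cells and in 81.8% ± 5.23 (SD, n = 5) of the expanded ones. It was found in 1.27% ± 1.06 (SD, n = 5) of control basal keratinocytes, at medians of 6744 and 10994 UMIs. All 5 expanded libraries were above their controls, with a log2 fold change of 0.40 (SE 0.13, adjusted p = 0.06). Pairing the libraries by day and round as a replicate block gave an adjusted p of 0.0459 and so a call, as did DESeq2 (adjusted p = 0.0246) and no filter on low counts (adjusted p = 0.0415). RLE factors, thinned cells, finer clustering and each library left out made no call, and with mice as replicates the log2 fold change was 0.10 (adjusted p = 0.796). Lymphatic endothelial cells held 2.26 ± 3.99 CPM (SD, n = 5) in control skin. With arm labels exchanged freely, the change in the Lyz1/Mgl2 cluster differed from that in endothelial cells (difference of log2 changes -1.22, exact permutation p = 0.00794, adjusted p = 0.0159 over 6 comparisons). With labels exchanged only within pairs the exact permutation p was 0.0625.

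Csf3, the G-CSF gene, was an endothelial transcript in control skin, at 332, 736, 312, 344 and 658 CPM in the control libraries and 42.9, 109, 338, 186 and 799 CPM in the expanded libraries. Both day 1 libraries of the expanded arm were far below their controls, day 2 round 1 and day 4 were above theirs, and the arms overlapped (log2 fold change -1.26, SE 0.51, adjusted p = 0.127). Endothelial cluster 30, led by Selp, Sele and Ackr1, genes of venules that recruit leukocytes, had the highest level of any unit, at 1317 ± 441 CPM (SD, n = 4) in control skin, against 164 ± 52.7 CPM (SD, n = 5) in the larger cluster 7, led by Rbp7 and Flt1. In cluster 30 it was 888, 1767, 992 and 1620.3 CPM in the control libraries and 104, 338 and 1546 CPM in the expanded libraries, the expanded libraries being those of day 1 and day 4. The edgeR test of arm by day did not call Csf3 in endothelial cells (adjusted p = 0.678) or pericytes (adjusted p = 0.38).

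Fibroblasts and the Cxcl5/Tnc cluster had little Csf3 in control skin and more in most expanded libraries. In fibroblasts it was 0.140, 0.301, 0.112, 0.0659 and 7.59 CPM in the control libraries and 0.518, 8.28, 16.2, 0.925 and 15.7 CPM in the expanded libraries. It was higher in 5 of 5 pairs (log2 fold change 3.45, SE 0.97, adjusted p = 0.0232), some of which rested on very few UMIs. Day 1 round 1 held 8 UMIs in 4 expanded cells against 6 UMIs in 6 control cells. Day 2 round 2 held 3 UMIs in 1 expanded cell against 1 UMI in 1 control cell. In the Cxcl5/Tnc cluster Csf3 was 0, 0, 6.65 and 0.865 CPM in the control libraries and 0, 9.04, 63.4, 39.2 and 113 CPM in the expanded libraries. It was higher in 3 of 4 pairs, with both day 1 round 1 libraries at 0 (log2 fold change 4.14, SE 0.81, adjusted p = 0.0049). Few cells held these UMIs. Expanded fibroblasts had 76 UMIs in 8 of 966 cells in day 1 round 2, 122 UMIs in 12 of 516 cells in day 2 round 1 and 83 UMIs in 7 of 381 cells on day 4. The highest control value, on day 4, came from 215 UMIs in 11 of 2693 cells, 158 of them in 1 cell. In the Cxcl5/Tnc cluster, expanded day 4 had 193 UMIs in 17 of 77 cells.

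Fibroblast clusters 6 and 29, fitted alone, also called Csf3 as higher (adjusted p = 0.00258 and 0.000601). In cluster 6 it was 0, 0.203, 0, 0 and 0.341 CPM in the control libraries and 0.262, 1.38, 0, 4.95 and 29.5 CPM in the expanded libraries. In cluster 29 it was 0 in all 4 control libraries and 11.6, 24.8, 223 and 50.1 CPM in the expanded libraries with enough cells. The fibroblast call was lost without control day 1 round 1, day 2 round 1 or day 2 round 2 or expanded day 1 round 2 or day 2 round 1 (adjusted p = 0.0532 to 0.0765), and its log2 fold change ranged from 2.58 to 4.77 over the fits that left out a library. The call of the Cxcl5/Tnc cluster was lost without expanded day 4 round 1 (adjusted p = 0.0567), with a range of 3.10 to 6.71, and with DESeq2 (adjusted p = 0.0514). The endothelial marker list summed in fibroblasts to 28.2 to 60.5 CPM in control and 39.7 to 87.4 CPM in expanded libraries (5 of 8 markers above 1 CPM, 7 higher in expanded cells), and in the Cxcl5/Tnc cluster to 61.2 to 136 CPM in control and 42.2 to 152 CPM in expanded libraries (3 of 8 markers above 1 CPM, 4 higher in expanded cells). The neutrophil list summed to 194 to 276 CPM in control and 35.2 to 246 CPM in expanded libraries (4 of 8 markers above 1 CPM, 7 higher in expanded cells) in fibroblasts. In the Cxcl5/Tnc cluster it summed to 166 to 268 CPM in control and 43.7 to 408 CPM in expanded libraries (7 of 8 markers above 1 CPM, 6 higher in expanded cells, Ly6g at 0). Il1r2 made up most of the control sums, at 233 CPM in control and 126 CPM in expanded cells of the fibroblast class and 197 CPM in control and 99.1 CPM in expanded cells of the Cxcl5/Tnc cluster. The neutrophil genes S100a8 and S100a9 were higher in expanded cells. In fibroblasts S100a8 was at 0.254 CPM in control and 7.01 CPM in expanded cells, and S100a9 at 0.706 CPM in control and 12.2 CPM in expanded cells. In the Cxcl5/Tnc cluster S100a8 was at 0.148 CPM in control and 54.4 CPM in expanded cells, and S100a9 at 0.148 CPM in control and 95.9 CPM in expanded cells. Their part in the Csf3 values was not tested.

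3 further units showed values of the same kind without a call. Pericytes had Csf3 at 6.15, 16.9, 0, 1.01 and 5.89 CPM in the control libraries and 0, 3.50, 72.9, 33.5 and 137 CPM in the expanded libraries (log2 fold change 2.44, SE 0.96, adjusted p = 0.101). In expanded day 2 round 1 the 67 UMIs came from 1 cell. The gene was called in pericytes without control day 1 round 2 or expanded day 1 round 1 (adjusted p = 0.0108 to 0.0332). Dermal papilla cells had 0, 0, 16.7 and 23.5 CPM in the control libraries and 2.61, 89.9, 3.30 and 211 CPM in the expanded libraries (log2 fold change 2.33, SE 0.64, adjusted p = 0.0551) in the 4 libraries per arm with enough cells. There it was called without control day 1 round 2 or day 2 round 2 or expanded day 1 round 2 or day 2 round 2 (adjusted p = 9.27e-05 to 0.0348). Lymphatic endothelial cells had 31.8, 12.6, 105, 1.15 and 67.6 CPM in the control libraries and 1.75, 70.4, 249, 56.6 and 290.0 CPM in the expanded libraries (log2 fold change 1.98, SE 0.71, adjusted p = 0.0867). The latter became a call with the replicate block (adjusted p = 0.0221) and without expanded day 1 round 1 (adjusted p = 0.0183). With arm labels exchanged freely, the change in fibroblasts differed from that in endothelial cells (difference of log2 changes 4.77, exact permutation p = 0.0159, adjusted p = 0.019 over 6 comparisons). With labels exchanged only within pairs the exact permutation p was 0.0625, and the comparison was chosen after the values were seen. Neutrophils also held Csf3, at 889 and 34.3 CPM in the control libraries and 719, 568, 260.2 and 536 CPM in the expanded libraries (2 control and 4 expanded libraries with enough cells), and expanded day 2 round 1 had 857 UMIs in 114 of 492 cells.

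**Figure D5:**
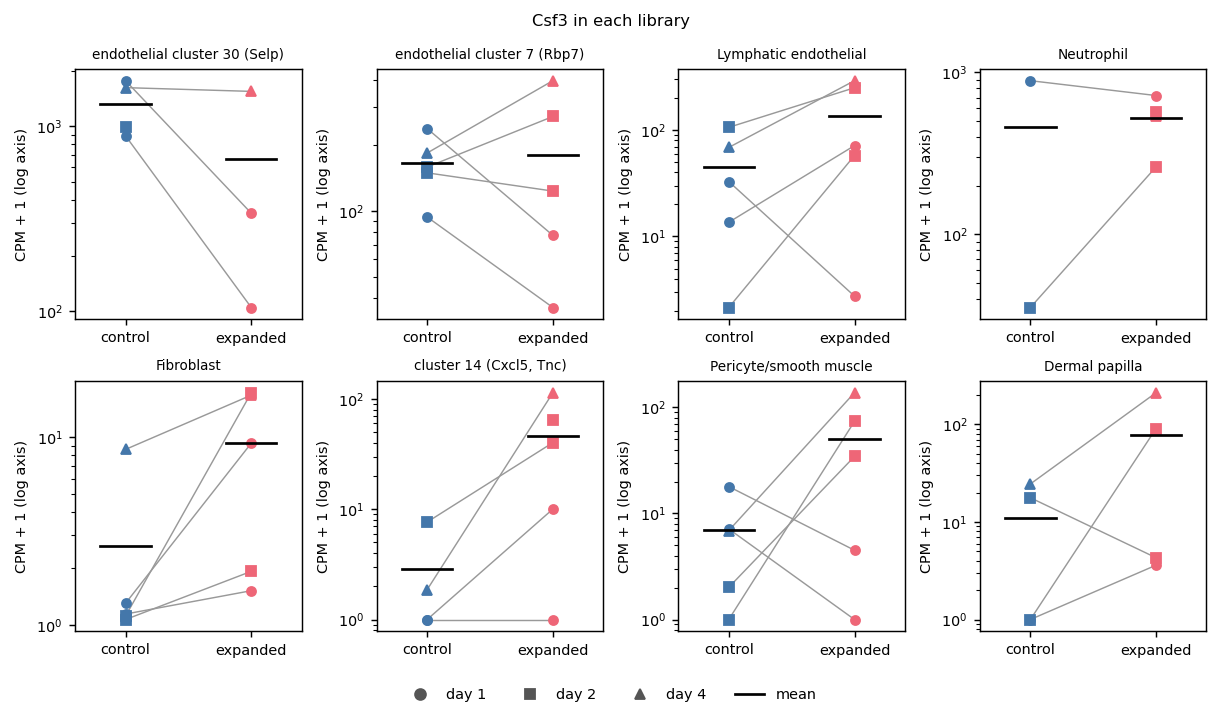
Csf3 as CPM + 1 on log axes in each library with at least 20 cells, with grey lines joining the control and expanded library of a day and round and black bars at the means. In both endothelial clusters the day 1 libraries (circles) fall, and in the stromal panels of the lower row the day 4 library (triangle) rises.

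Csf3r, the G-CSF receptor gene, was a neutrophil gene, at 633 and 1189.9 CPM in the control libraries and 1070.3, 721, 961 and 616 CPM in the expanded libraries (only libraries with enough cells), and the arms overlapped. A UMI was found in 75.2% ± 18.6 (SD, n = 2) of the control neutrophils and in 74.5% ± 9.64 (SD, n = 4) of the expanded ones. It was found in 0.218% ± 0.345 (SD, n = 5) of control basal keratinocytes, at medians of 2917 and 10994 UMIs. Only 2 control libraries had enough neutrophils, so the class was not tested. Macrophages came next, at 38.4, 33.8, 29.2, 35.2 and 37 CPM in the control libraries and 35.7, 15.4, 25.8, 33.8 and 30.9 CPM in the expanded libraries, lower in 5 of 5 pairs without a call (log2 fold change -0.43, SE 0.20, adjusted p = 0.142). Over all cells Csf3r was 4.21, 3.03, 4.25, 7.36 and 4.62 CPM in the control libraries and 5.42, 13.7, 38.6, 44.1 and 21.9 CPM in the expanded libraries, higher in 5 of 5 pairs (log2 fold change 1.94, SE 0.37, adjusted p = 0.00685). Neutrophils were 0.123% to 0.767% of control and 0.653% to 14.9% of expanded cells. In macrophages the neutrophil marker list summed to 28.6 to 107 CPM in control and 308 to 1839 CPM in expanded libraries (6 of 8 markers above 1 CPM, 7 higher in expanded cells). The expanded sum was mostly S100a8, at 11.6 CPM in control and 685 CPM in expanded macrophages, and S100a9, at 6.80 and 165 CPM. Retnlg, Cxcr2 and Ly6g were at most 1.13 CPM in either arm, and Mmp9 was lower, at 10.3 and 1.49 CPM. The part of this list in the Csf3r values of macrophages was not tested.

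Over all cells, Csf1r was not called (log2 fold change -0.71, SE 0.28, adjusted p = 0.0936), and became a call with the replicate block (adjusted p = 0.0471) and without control day 2 round 2 or expanded day 2 round 1 (adjusted p = 0.0392 to 0.0497). Csf2, Csf2ra, Csf2rb and Csf3 gave log2 fold changes of -0.55, -0.29, 0.26 and 0.46, none called. Over days 1, 2 and 4, the arm difference of no member was called as changing with day in the 10 units that could be tested. The edgeR test made 0 calls among 50 tests, with 5 at an unadjusted p under 0.05, and DESeq2 made 0 calls among the 37 it gave an adjusted p, with 3. DESeq2 gave no adjusted p to the other 13, of which 2 had an unadjusted p under 0.05 (Csf3 in pericytes and Csf1 in the Lyz1/Mgl2 cluster), so no call could be made there. Of all gene-by-unit tests of this kind, 0.00486% were called, and day 4 had 1 library per arm.

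Genes downstream of the receptors were counted from a list of 19 signalling genes that holds the JAK kinases, the STAT factors and their feedback inhibitors. In the Lyz1/Mgl2 cluster 7 of 19 tested were called, 2 higher and 5 lower (median log2 fold change -0.25, all genes 0.02; 16.5% of all genes called). Stat3 and Stat5a, factors that transmit CSF3 and CSF2 signals, fell: Stat3 -1.02 (SE 0.20) and Stat5a -0.74 (SE 0.17). In macrophages 4 of 19 were called, 3 higher and 1 lower (median log2 fold change 0.17, all genes 0.004; 22.2% of all genes called), among them Socs2 1.05 (SE 0.27), a feedback inhibitor, Tyrobp 0.55 (SE 0.13), an adaptor, and Stat3 -0.82 (SE 0.18). In fibroblasts 5 of 18 were called, 1 higher and 4 lower (median log2 fold change -0.13, all genes 0.03; 27.3% of all genes called), with Stat5b -1.22 (SE 0.12), Cish -0.75 (SE 0.17) and Stat5a -0.64 (SE 0.13). Cish, a target and inhibitor of STAT5, also fell in basal keratinocytes, lymphatic endothelial cells and pericytes (-0.58, -0.71 and -1.11), where 5 of 16, 3 of 14 and 6 of 16 of the list were called, against 13.8%, 10% and 15.7% of all genes. Pim1, a kinase gene induced by STAT factors, fell in endothelial cells (-1.02), lymphatic endothelial cells (-1.22) and basal keratinocytes (-0.95). In endothelial cells 4 of 17 of the list were called, 1 higher and 3 lower (median log2 fold change -0.15, all genes 0.01; 11.3% of all genes called), and in the Cxcl5/Tnc cluster 2 of 16 (18.2% of all genes called), with Socs1 -1.20 (SE 0.23) and Jak1 -0.70 (SE 0.18). None was called in dermal papilla cells, melanocytes, Schwann cells, T cells or the Ccl22/Cd207, Gzmc/Xcl1 and Foxp3/Ctla4 clusters.

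A list of 15 inducers and mRNA regulators of the ligands holds cytokine genes, their receptors, NF-kappaB genes and RNA-binding proteins that destabilise cytokine mRNA. In pericytes 4 of 11 tested were called, 0 higher and 4 lower (median log2 fold change -0.56, all genes 0.01; 15.7% of all genes called), with Nfkbiz -0.91 (SE 0.12), Zfp36l1 -0.80 (SE 0.14) and Nfkbia -0.67 (SE 0.16). In lymphatic endothelial cells 3 of 9 were called, all lower (10% of all genes called), with Zfp36 -0.93 (SE 0.24), a gene whose product degrades Csf2 and Csf3 mRNA. Endothelial cells had 3 of 12 called, all lower (11.3% of all genes called), with Nfkbia -0.66 (SE 0.13), an NF-kappaB target, and Rela -0.52 (SE 0.15). Macrophages had 2 of 13 called, all lower (22.2% of all genes called), with Tnf -1.06 (SE 0.20). In fibroblasts 3 of 12 were called (27.3% of all genes) and in basal keratinocytes 2 of 13 (13.8%). The Lyz1/Mgl2 cluster had 3 of 13 called (16.5%), the Cxcl5/Tnc cluster 4 of 12 (18.2%) and dermal papilla cells 2 of 11 (3.55%). Il1r1, the IL-1 receptor gene, rose in dermal papilla cells (1.10) and in the Cxcl5/Tnc cluster (0.63) and fell in the Lyz1/Mgl2 cluster (-0.99). Tnfrsf1a, a TNF receptor gene, rose in fibroblasts (0.62) and basal keratinocytes (0.55), and Adam17, a protease that releases membrane-bound CSF1, fell in fibroblasts (-0.56), basal keratinocytes (-0.43) and the Cxcl5/Tnc cluster (-0.97).

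Of 13 myeloid transcription factor genes, 5 of 12 tested were called in macrophages, 1 higher and 4 lower (median log2 fold change -0.38, all genes 0.004; 22.2% of all genes called). Irf4 and Egr2 fell (-2.79, SE 0.26, and -1.40, SE 0.26), and Cebpe, a granulocyte factor, rose (1.05). The neutrophil marker sum of macrophages, led by S100a8 and S100a9 in expanded cells, was higher in expanded libraries, and its part in the Cebpe value was not tested. In the Lyz1/Mgl2 cluster Cebpb and Irf4 fell (-0.98 and -0.68). In fibroblasts 7 of 11 were called, 4 higher and 3 lower (median log2 fold change -0.01, all genes 0.03; 27.3% of all genes called), among them Irf4 -3.04 (SE 0.48) and Runx1 1.24 (SE 0.17), the last a factor that also rose in the Cxcl5/Tnc cluster (0.73). Among the 7 shared-chain and co-receptor genes, Sdc1, whose product syndecan-1 can bind IL-34, rose in fibroblasts (0.69), macrophages (2.17), pericytes (2.07) and the Cxcl5/Tnc cluster (1.27). Il5, whose receptor uses the beta chain of Csf2rb, fell in T cells (-1.71, SE 0.26, adjusted p = 0.0187, in 5 of 5 pairs), where 0.183% of all genes were called. Il3ra, the alpha chain of the IL-3 receptor, fell in fibroblasts (-0.78).

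Across 185 class-by-library sums and 10865 genes with at least 5 CPM on average, the genes whose log2(CPM + 1) followed each member most closely were found by Pearson's r. Sums of a library share its depth, and sums of a class share its cells, so r describes the pattern and has no test. Csf2rb went most closely with Csf2rb2 (0.94), its paralog, which reads shared between the copies could raise. Csf3r followed Fcgr4 (0.91), Sirpb1b (0.90) and Trim30b (0.89), Csf2ra followed Cd300c2 (0.89), Mpeg1 (0.87) and Mefv (0.86), and Csf1r followed Mpeg1 (0.80), Clec4n (0.79) and Clec4a1 (0.78). Csf2 followed Sytl3 (0.81), Il13 (0.80) and Tespa1 (0.79), of which Il13 is a cytokine gene of type 2 lymphoid cells and mast cells. Csf3 followed Lrg1 (0.77), Rasip1 (0.69) and Sema6b (0.67), Il34 followed Vgll3 (0.80), Ntrk2 (0.80) and Mrgprf (0.79), and Csf1 followed Cd55 (0.69), Itga2b (0.68) and Vegfc (0.66), the loosest match of the 8.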

How the data were processed

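Per the labels, single cells of mouse skin were captured with 10x 3′ v3.1 chemistry in 10 mRNA libraries, 8 of which had a hashing library that tells the mice apart (28 mice). The deposited matrices hold whole UMI counts per gene and cell, which per the file headers the authors obtained from Cell Ranger 6.1.2, on mm10 per the submitters' processing notes. The titles of the mRNA and hashing libraries of control day 1 round 2 appear exchanged, and the library type label was followed.

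The limits per cell were 200 genes or more, 500 UMIs or more and no more than 10% of UMIs from mitochondria, which 47251 of 55174 barcodes met, and 1756 doublets found by Scrublet or hashtags were removed (1.46% to 5.75% by library). Scrublet marked under 0.500% in 4 libraries, none with more than 3423 cells. Clustering used 2000 variable genes without the 8 members and Csf2rb2, 30 components, 15 neighbours and Leiden resolution 1 (scanpy 1.11.5, leidenalg 0.10.2). Clusters were named from marker lists, with details of the naming rule set while the clusters were examined, and classes rebuilt in this way may differ from the study's own.

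Counts were summed per class and library (at least 20 cells, at least 4 libraries per arm) and tested with edgeR 4.0.16 (quasi-likelihood, TMM, filterByExpr, day as covariate, Benjamini-Hochberg adjustment over all genes, in R 4.3.3). The fits were tested on simulated data with known changes. The alternatives were RLE factors, DESeq2 1.42.0, no filter, thinned cells, mice as replicates (hashtags called with Seurat 5.3.0), finer clustering, each library left out, and a replicate block. The labels pair control and expanded libraries of a day and round, and their deviations between rounds correlated at 0.165 to 0.629 across genes. All 8 members were named in every unit, and up to 3 pathway genes per list and unit were named, those called and changed the same way in every pair, by size of change; some genes this rule names are not reported here. The members and lists were chosen with earlier results of these data known.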

Additional observations from a re-analysis of the deposited data

Results flagged for a closer look

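Of 110 groups of 4 or 5 libraries examined for a member in a unit, 9 had 1 library far from the others by Dixon's test, and chance marks about 1 in 20 groups. Csf3 in control fibroblasts of day 4 stood at 7.59 CPM, where the other control libraries had 0.0659 to 0.301 CPM. Csf3 in the control Cxcl5/Tnc cluster of day 2 round 2 stood at 6.65 CPM against at most 0.865 CPM, and its 18 UMIs came from 1 cell. Csf2ra in expanded fibroblasts of day 4 was 5.68 CPM against 2.07 to 3.08 CPM. Csf1 over all expanded cells of day 1 round 1 was 96.5 CPM against 34.5 to 49.1 CPM.

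The other 5 lay in T cells of day 1 round 1, in both arms. Csf2rb was 50.5 CPM in control and 55.9 CPM in expanded T cells of that round, and at most 13.7 and 9.11 CPM in the other libraries of each arm. Csf1r was 44.8 and 48.9 CPM, against at most 10.1 and 2.95 CPM. Csf2ra was 66.4 CPM in expanded T cells, against at most 6.97 CPM. The Langerhans marker list summed in T cells of day 1 round 1 to 1126 CPM in control and 4269.9 CPM in expanded skin, and over the other libraries from 93.9 to 1059.7 CPM. Over all T cells the largest value of that list was Cd74, at 526 CPM in control and 766 CPM in expanded cells, with Cd207 at 1.91 and 3.99 CPM. The macrophage gene C1qa was found in 31.0% of T cells with Csf1r and in 1.32% of those without, over both arms. The part of these genes in the flagged values was not tested. Neither day 1 round 1 library had hashtags.

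In 5 of the 6 comparisons between units, the arm effect differed by an exact permutation test that exchanged the arm labels freely, and none of the 5 passed with labels exchanged only within pairs (exact p = 0.0625 each, the smallest possible). The differences of log2 changes were 4.37 for Csf1r in the Ccl22/Cd207 cluster against macrophages, 1.60 for Csf1r in the Lyz1/Mgl2 cluster against macrophages, -1.22 for Csf2rb in that cluster against endothelial cells, -1.55 for Csf2rb in it against macrophages, and 4.77 for Csf3 in fibroblasts against endothelial cells.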

How the results depend on the processing

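Of the 12 calls of a member within a unit, none was lost with the replicate block that pairs libraries of a day and round, which made 14 calls in 54 tests, with no change of direction, the 2 added calls being those given for Csf2rb and Csf3. Over all cells the block gave 4 calls against 3. RLE factors gave 11 calls, DESeq2 12 and thinned cells 12 of 30 tests. Without the filter on low counts there were 26 calls among 118 tests within units, and 5 of 79 tests of arm by day were called against 0. Finer clustering gave 6 calls among 28 tests, as many as the main clustering made in those units. Mice as replicates gave 8 of 22 tests within units, where the libraries gave 7 in the same units, and 4 over all cells, with mice of 1 tube sharing a library. Leaving out 1 library gave 6 to 16 calls within units, fewest without control day 2 round 1, and 2 to 4 over all cells. Of 349 alternative values for 22 named results, 277 kept direction and side of the threshold, 47 lost the call, 25 gained it and 0 changed direction. Among the clusters fitted singly, 3 values went against their class: Csf1 in fibroblast cluster 29 (0.18) and Csf1r in fibroblast clusters 2 (0.17) and 6 (0.19). The cause was not tested.

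Counts over all genes moved more. The number of called genes, with its range over all alternatives in brackets, was 3764 (2195 to 4614) in fibroblasts, 2487 (1248 to 4013) in macrophages, 1918 (625 to 2402) in the Cxcl5/Tnc cluster, 1487 (409 to 2462) in the Lyz1/Mgl2 cluster and 356 (32 to 1106) in the Ccl22/Cd207 cluster. It was 1632 (310 to 2354) in basal keratinocytes, 1344 (511 to 1681) in pericytes, 1179 (402 to 1783) in endothelial and 763 (187 to 967) in lymphatic endothelial cells, and 306 (122 to 548) in dermal papilla cells. It was 79 (35 to 225) in melanocytes, 26 (4 to 248) in Schwann cells, 16 (9 to 282) in T cells, 31 (12 to 186) in the Gzmc/Xcl1 cluster, 0 (0 to 32) in the Foxp3/Ctla4 cluster and 4442 (2014 to 6015) over all cells. No filter moved the median log2 fold change of all genes to 0.15 in the Cxcl5/Tnc cluster and down by 0.10 in the Lyz1/Mgl2 cluster, and no scaling moved it past 0.1. Depth limits shares of cells with a UMI, of which 15 of 20 moved by more than their spread on thinning. Of 12 class shares of UMIs, 1 moved with finer clustering (Csf1, control fibroblasts).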

Other observations

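The Mcpt8 cluster, 121 cells led by Mcpt8, Gzmb, Hdc, Il4 and Il13, held 19 control cells, too few for a level, and 102 expanded cells, so it entered no comparison. In its 4 expanded libraries with enough cells, Csf1 was 959, 589.6, 247 and 1134 CPM, a mean of 732 ± 395 CPM (SD, n = 4) and the highest mean of any unit. Few cells held it: the value of expanded day 4 came from 71 UMIs in 8 cells. Csf2 was 209, 0, 407 and 31.9 CPM in the same libraries. It rested on 12 UMIs in 2 of 20 cells in day 1 round 2. In day 2 round 2 it rested on 33 UMIs in 2 of 22 cells, 22 of them in 1 cell. Csf2rb was 2579, 2222, 2022 and 1629 CPM, and its paralog Csf2rb2 averaged 1610.0 ± 379.7 CPM (SD, n = 4). No UMI of Csf3 or Il34 was found in the cluster.

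Cluster 21 of the fibroblast class, led by Gpx3 and Cxcl13, had 684 cells, of which 649 were control. It held 5.60% of control and 1.14% of expanded fibroblasts. Its Csf1 was at 387, 422, 398, 280.1 and 202 CPM in the 5 control libraries, close to the level of mast cells, and no expanded library had enough cells. A small cluster led by the cell division genes Mki67 and Top2a had Csf2ra at 336 ± 36.9 CPM (SD, n = 2) and Csf1r at 104 ± 22.6 CPM (SD, n = 2), with 94 control and 11 expanded cells.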
